A study of Mus musculus with 12 samples.

Results

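Female primordial germ cells (PGCs) taken from embryonic gonads at E12.5 were compared with female PGC-like cells (PGCLCs) held in culture for 6 days, without gonadal somatic cells. The comparison used 4 of the 12 arrays of the series, 2 for each group, and all probe sets. Arrays were chosen by the code in their description, with PGC12F for the E12.5 PGCs and PGCLCd6F for the day 6 (d6) PGCLCs, and all 4 carry the code EA1013. PGCLCs had been induced from embryonic stem cells of C57BL/6 background that carried the BVSC reporters. These are Blimp1-mVenus, which follows the gene Prdm1, and stella-ECFP, which follows Dppa3. The E12.5 PGCs came from stella-EGFP males (C57BL/6) mated with wild-type BDF1 females, and were therefore of mixed background. Both were sorted on reporter fluorescence, so that Dppa3 in both groups and Prdm1 in the PGCLCs were subject to the sort. Place of origin, time, strain background and reporter all differ between the groups and cannot be told apart. The titles call the arrays biological replicates, but nothing else says how separate they were. The p-values measure the spread between the 2 arrays of a group, pooled over the 6 groups of the series. That spread may be technical. Levels in the other groups of the series are given beside some results: female PGCLCs at day 3 (d3), d3 PGCLCs aggregated with the somatic cells of E12.5 female gonads for 6 days (d3ag6), male d6 PGCLCs, and E9.5 PGCs of unknown sex.

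PGCs are the embryonic precursors of oocytes and sperm. After they reach the gonad they lose most of their DNA methylation, switch on a set of germline genes, and, in females, receive retinoic acid and BMP signals from the surrounding tissue and enter meiosis. Entry into meiosis is marked by Stra8 and by the proteins that build the axis of the meiotic chromosome and the synaptonemal complex, the structure that joins paired chromosomes.

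Values are log2 signal, differences are E12.5 minus d6 on that scale with the standard error (SE) of limma's fit, and a fold is 2 raised to the difference. A gene was called at a Benjamini-Hochberg adjusted p under 0.05 over all genes tested. The median of all values of the table was 4.81, and a level below it is termed dim. Of 13436 genes tested, 2611 (19.4%) were called. E12.5 PGCs were higher for 1253 genes (9.33%) and lower for 1358 (10.1%), and 1575 of the calls differed by at least 2-fold. At the level of probe sets, 3671 of 25664 (14.3%) were called, 1857 higher (7.24%) and 1814 lower (7.07%). Leaving out an array lowered the number of genes called to 1158 without E12.5 replicate 1, 1135 without E12.5 replicate 2, 1314 without d6 replicate 1 and 1475 without d6 replicate 2. In all, 919 genes, 429 higher and 490 lower, kept their call whichever of the 4 arrays was left out, and "kept" below has this meaning. In each of the 2 groups compared, the 2 arrays correlated at 0.984 or above over the 13436 genes tested. Groups without overlap were common: both E12.5 arrays lay above both d6 arrays for 4443 of 13436 genes, and below both for 4610. Some genes stand in more than 1 list. Beside the list counts that follow, the median difference over all genes tested was -0.01.

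**Figure D1:**
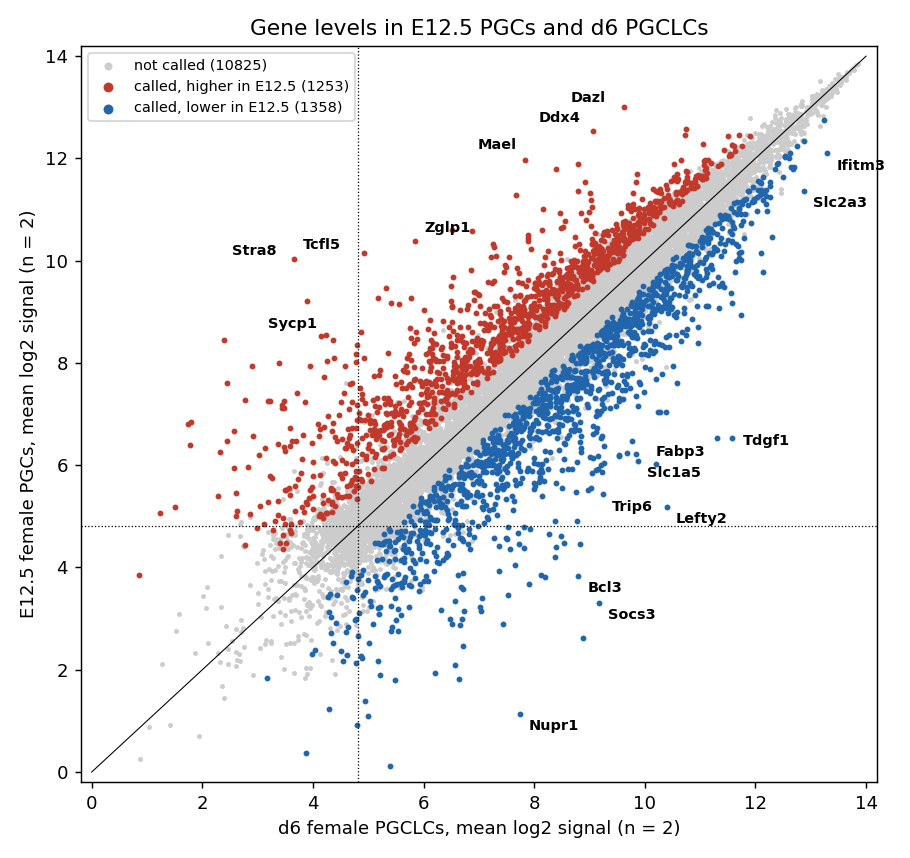
Mean log2 signal of each of 13436 genes in d6 female PGCLCs (horizontal axis, n = 2) and E12.5 female PGCs (vertical axis, n = 2). Red points are the 1253 genes called higher in E12.5 and blue points the 1358 called lower; dotted lines mark 4.81 and the diagonal marks equal levels. Stra8 and Tcfl5 lie far above the diagonal, and Lefty2, Socs3 and Nupr1 far below it.

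The promoters of 5 genes are shown because these genes were among the 15 with the largest difference toward E12.5 PGCs. Slc25a31, Mael, Asz1 and Sycp1 also belong to a list of germline genes known to depend on promoter methylation for their silencing outside the germ line, and Stra8 had the largest difference toward E12.5 PGCs of all genes tested. Each sequence runs 5′ to 3′ on the strand of the gene, from 250 bases before to 50 bases after the annotated start, and is from RefSeq, build GRCm38.p6. Capitals mark E-boxes (CACGTG, which reads the same on both strands) and E2F-type sites (TCCCGC, or GCGGGA where the site is on the opposite strand). The motifs do not overlap in the sequences shown.

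Slc25a31, chr3:40708621-40708920, plus strand: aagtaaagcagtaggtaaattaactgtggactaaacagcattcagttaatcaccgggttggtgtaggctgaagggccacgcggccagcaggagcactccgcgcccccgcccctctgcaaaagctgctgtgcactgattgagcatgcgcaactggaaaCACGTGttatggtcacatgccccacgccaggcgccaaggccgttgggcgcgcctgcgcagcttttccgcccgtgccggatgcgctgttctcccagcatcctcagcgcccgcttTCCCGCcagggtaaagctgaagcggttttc

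Mael, chr1:166238695-166238994, minus strand: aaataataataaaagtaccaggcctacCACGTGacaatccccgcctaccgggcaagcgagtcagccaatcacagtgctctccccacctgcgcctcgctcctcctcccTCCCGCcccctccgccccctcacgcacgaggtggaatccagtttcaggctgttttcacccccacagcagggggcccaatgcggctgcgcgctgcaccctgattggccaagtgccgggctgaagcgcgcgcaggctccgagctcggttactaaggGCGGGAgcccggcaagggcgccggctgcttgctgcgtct

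Asz1, chr6:18109012-18109311, minus strand: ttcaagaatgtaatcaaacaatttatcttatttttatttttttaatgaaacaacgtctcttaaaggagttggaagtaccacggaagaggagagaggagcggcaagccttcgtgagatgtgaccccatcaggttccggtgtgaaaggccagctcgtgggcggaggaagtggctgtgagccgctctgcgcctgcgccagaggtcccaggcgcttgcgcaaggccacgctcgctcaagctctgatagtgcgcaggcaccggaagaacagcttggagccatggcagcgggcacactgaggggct

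Sycp1, chr3:102936051-102936350, minus strand: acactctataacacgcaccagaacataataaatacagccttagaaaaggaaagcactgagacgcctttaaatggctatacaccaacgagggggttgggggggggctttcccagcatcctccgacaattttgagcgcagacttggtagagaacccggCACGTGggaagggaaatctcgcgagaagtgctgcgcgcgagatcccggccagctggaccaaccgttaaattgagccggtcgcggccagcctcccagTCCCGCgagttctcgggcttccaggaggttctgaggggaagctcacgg

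Stra8, chr6:34920698-34920997, plus strand: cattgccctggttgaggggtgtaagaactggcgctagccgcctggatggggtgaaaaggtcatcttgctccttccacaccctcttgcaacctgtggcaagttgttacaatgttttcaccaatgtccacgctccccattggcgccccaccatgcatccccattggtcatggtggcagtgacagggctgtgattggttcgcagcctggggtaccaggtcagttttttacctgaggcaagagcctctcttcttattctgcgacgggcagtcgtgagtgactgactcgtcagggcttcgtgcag

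Slc25a31 and Sycp1 each hold 1 E-box and 1 E2F-type site, Mael holds 1 E-box and 2 E2F-type sites, and neither motif occurs in the windows of Asz1 and Stra8. An E-box was present in 14 of the 24 promoters (58.3%) that RefSeq gives for 21 tested genes of the methylation-dependent list. It was present in 9.6% of the promoters of all genes tested, 9.24% of those of genes higher in E12.5 and 11.0% of those of genes lower in E12.5. The E2F-type site was present in 50.0% of the promoters of the list, in 33.3% of those of all genes tested, in 38.5% of those of higher genes and in 31.1% of those of lower genes. Within the list, 10 of the 12 genes with an E-box and 6 of the 9 genes without it were higher in E12.5 PGCs. The motif counts describe these windows and show no binding.

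The germline genes of the methylation-dependent list were the list with the greatest share of higher genes among those drawn up. Of 24 tested genes, 17 were higher and 1 (Cdc25c) was lower in E12.5 PGCs, 15 of the higher ones were kept, and the median difference was 2.33. Slc25a31, which encodes the ADP/ATP carrier of germ cell mitochondria, had 11.28 and 11.3 on the E12.5 arrays and 8.0 and 7.34 on the d6 arrays. The difference was 3.63 ± 0.26 (SE, adjusted p = 7.55e-05, 12.4-fold). Stk31, a kinase-like protein of germ cells, differed by 2.56 ± 0.2 (adjusted p = 0.00011), and Brdt, a chromatin reader of the testis, by 2.66 ± 0.26 (adjusted p = 0.000238). Tex14, a component of the bridges between germ cells, was higher by 2.34 ± 0.32 (adjusted p = 0.00149). Slc25a31 was not dim in d6 PGCLCs, and neither were Stk31 and Tex14, so that these were differences between measurable levels. Cdc25c, a phosphatase of mitotic and meiotic entry, stood at 7.64 and 6.98 against 8.88 and 8.67, a difference of -1.46 ± 0.34 (adjusted p = 0.0169) that was not kept.

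Genes of meiotic entry and retinoic acid signalling were higher in 8 of 16 tested cases and lower in 0, of which 3 (Stra8, Zglp1 and Rec8) were kept, and the median difference was 1.12. Stra8, the retinoic acid-induced gatekeeper of meiotic entry, gave 10.17 and 9.92 in E12.5 PGCs and 3.49 and 3.81 in d6 PGCLCs. It was dim on both d6 arrays and bright on both E12.5 arrays. The difference was 6.39 ± 0.36 (adjusted p = 3.16e-05; 83.9-fold), or 5.23 with dim values set to 4.81. Zglp1, a nuclear factor that drives the oogenic programme downstream of BMP, had 10.39 on both E12.5 arrays and 5.96 and 5.74 on the d6 arrays. Its difference was 4.54 ± 0.29 (adjusted p = 5.51e-05; 23.3-fold). Tcfl5, a helix-loop-helix transcription factor of meiotic germ cells that stood outside the lists, had 10.4 and 9.92 against 5.02 and 4.84, a difference of 5.22 ± 0.23 (adjusted p = 9.56e-06; 37.4-fold).

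The proteins that make, store and receive retinoic acid were less clear-cut. Aldh1a2, a retinoic acid-producing enzyme, differed by 1.69 ± 0.34 (adjusted p = 0.00888) and Rdh10, which makes its substrate, by 0.98 ± 0.2 (adjusted p = 0.0105). The binding protein Crabp1 differed by 1.76 ± 0.46 (adjusted p = 0.0274), and the receptor Rarb, itself a target of retinoic acid, had 4.69 and 5.13 against 3.09 and 3.54, dim on all but 1 of these arrays (difference 1.59 ± 0.48, adjusted p = 0.0458; 0.16 with dim values set to 4.81). None of these 4 was kept, and the adjusted p of Crabp1 and Rarb rose above 0.05 whichever array was left out. The receptors Rara and Rarg gave differences of 0.24 (adjusted p = 0.348) and 0.33 (adjusted p = 0.329), and Cyp26a1, which degrades retinoic acid, gave -0.26 and was not called.

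Structural genes of the meiotic chromosome were higher as a group: 12 of 19 tested genes of the synaptonemal complex and axis were higher and 0 lower, 10 of them kept, with a median difference of 1.61. Tex12, of the central element, had 9.27 and 9.28 in E12.5 PGCs and 5.42 and 4.93 in d6 PGCLCs, a difference of 4.09 ± 0.27 (adjusted p = 6.25e-05; 17.1-fold). Sycp1, the transverse filament, had 8.35 and 8.74 against dim values of 4.43 and 4.04 (difference 4.31 ± 0.36, adjusted p = 0.000131). Hormad1, an axis protein that monitors pairing, had 10.53 and 10.67 against 6.72 and 6.3 (difference 4.08 ± 0.4, adjusted p = 0.000281). For each of these genes the arrays of the 2 groups were separated by more than the gap between arrays of a group. Sycp3, the main axial element protein, was already well above the median in d6 PGCLCs, with 7.74 and 7.18 there and 9.83 and 9.72 in E12.5 PGCs, and differed by 2.32 ± 0.25 (adjusted p = 0.000456; 4.98-fold). Sycp2, its axial partner, differed by 2.16 ± 0.36 (adjusted p = 0.00406).

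The meiotic cohesins, which hold sister chromatids on the axis, were above the median of all values in d6 PGCLCs and higher in E12.5 PGCs. Smc1b differed by 2.86 ± 0.38 (adjusted p = 0.0012), Stag3 by 1.83 ± 0.24 (adjusted p = 0.00108) and Rec8 by 1.37 ± 0.21 (adjusted p = 0.00241). All 3 were kept. Rec8 had 9.56 and 9.6 against 8.03 and 8.38, the smallest of these differences. Of the recombination factors, 7 of 20 tested genes were higher and 0 lower, 3 of them kept (Tex15, Spo11 and Msh4), with a median difference of 0.66. Spo11, which makes the DNA breaks that start recombination, had 7.71 and 8.01 against 5.72 and 5.53, a difference of 2.23 ± 0.19 (adjusted p = 0.000131). Tex15 differed by 2.13 ± 0.17 (adjusted p = 0.00011). Dmc1, the strand exchange protein of meiosis, had 7.98 and 8.04 against 7.56 and 7.35, a difference of 0.55 ± 0.22 that was not called (adjusted p = 0.119).

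**Figure D2:**
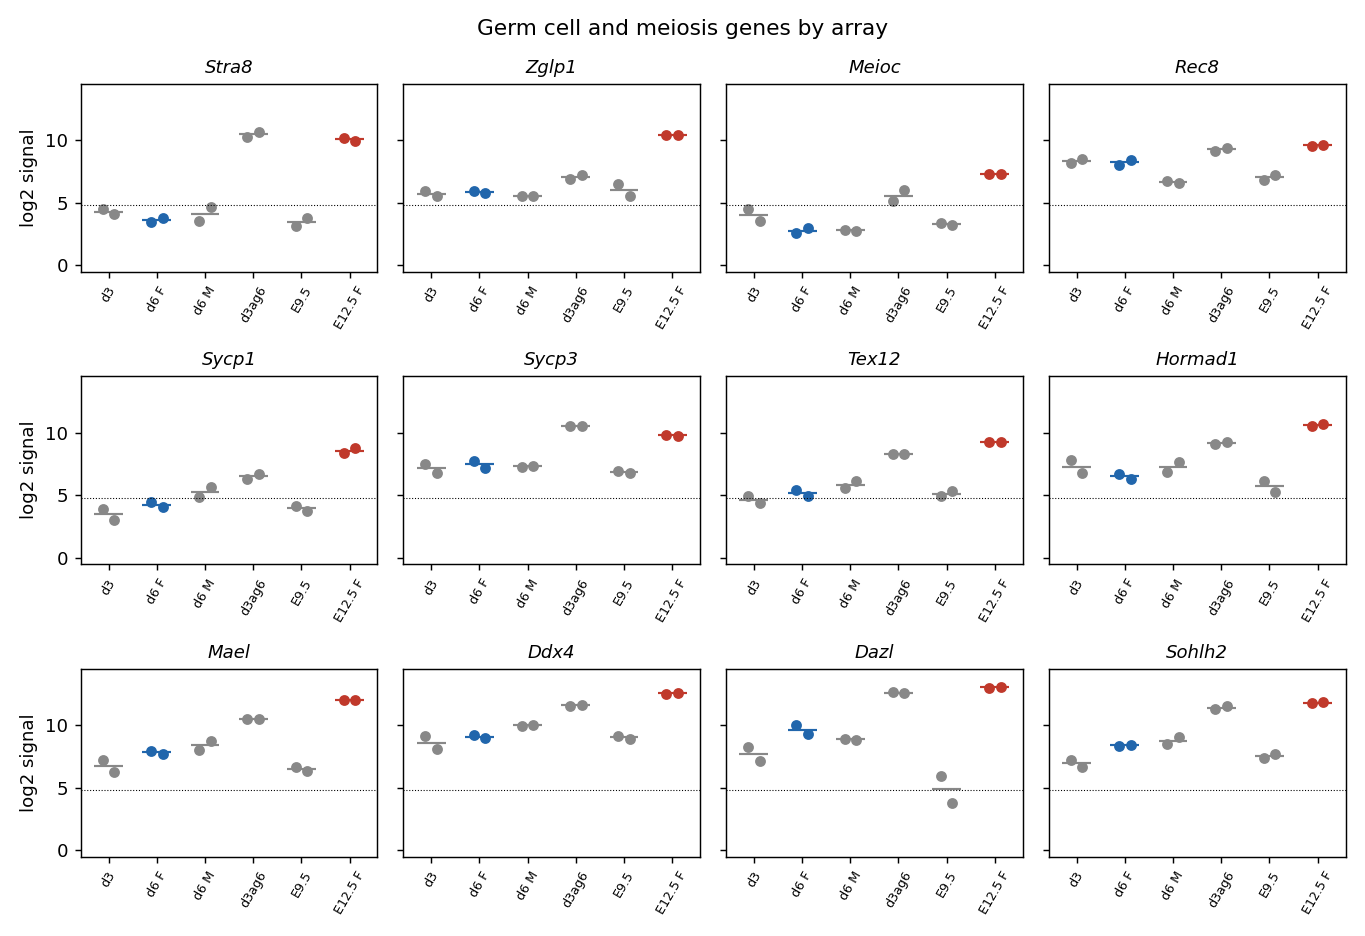
Log2 signal of 12 germ cell and meiosis genes on each of the 12 arrays: points are single arrays, short lines are means of 2 arrays, and the dotted line is 4.81. E12.5 PGCs are red, d6 female PGCLCs blue and the other 4 groups grey. In every panel both E12.5 points lie above both d6 female points, and the gap is widest for Stra8 (10.17 and 9.92 against 3.49 and 3.81).

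The piRNA pathway, which silences transposons in germ cells through small RNAs, had 12 of 21 tested genes higher and 0 lower, 9 of them kept, with a median difference of 1.59. Mael, a factor of nuclear and cytoplasmic piRNA steps, had 11.98 and 11.97 in E12.5 PGCs and 7.94 and 7.72 in d6 PGCLCs, a difference of 4.14 ± 0.33 (adjusted p = 0.00011; 17.7-fold). Ddx4, the RNA helicase that marks gonadal germ cells, had 12.51 and 12.55 against 9.17 and 8.96 (difference 3.47 ± 0.29, adjusted p = 0.000131; 11.1-fold). Both genes were thus readily measured in d6 PGCLCs. Asz1, of the mitochondrial cement, differed by 3.72 ± 0.31 (adjusted p = 0.000131), whereas its other tested probe set gave -0.26 and was not called. Mov10l1, the helicase that feeds piRNA precursors, differed by 2.96 ± 0.27 (adjusted p = 0.000185), and the Tudor protein Tdrd7 by 2.37 ± 0.23 (adjusted p = 0.000275). Piwil2, the PIWI protein that binds piRNAs, had 10.64 and 10.65 against 8.6 and 8.36 (difference 2.16 ± 0.34, adjusted p = 0.00283). Gtsf1, a PIWI cofactor, had 8.93 and 8.38 against 6.68 and 6.05, yet its difference of 2.29 ± 1.01 was not called (adjusted p = 0.152).

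Germ cell RNA-binding proteins were higher in 9 of 21 tested cases and lower in 0, 6 of them kept, with a median difference of 0.67. Meioc, which stabilises the meiotic prophase state, had 7.29 and 7.25 against dim values of 2.57 and 2.98, a difference of 4.49 ± 0.34 (adjusted p = 9.9e-05). With dim values set to 4.81 that difference was 2.46. Dazl, the translational regulator that licenses gonadal germ cells, had 12.96 and 13.04 against 10 and 9.26, a difference of 3.37 ± 0.61 (adjusted p = 0.00537; 10.3-fold). Rbm44, a protein of germ cell bridges, differed by 2.78 ± 0.26 (adjusted p = 0.000198). Ythdc2, the RNA helicase that works with Meioc, differed by 1.73 ± 0.37 (adjusted p = 0.0122) and was not kept. Lin28a and Dnd1, RNA-binding proteins needed from specification on, gave differences of 0.67 (adjusted p = 0.359) and 0.1 (adjusted p = 0.786).

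Of the early oocyte genes, 3 of 16 tested were higher and 0 lower, and 2 were kept. Sohlh2, a helix-loop-helix factor of early oocyte growth, had 11.77 and 11.82 against 8.35 and 8.43 (difference 3.4 ± 0.26, adjusted p = 9.89e-05). Lhx8, a homeobox factor of primordial follicles, had 5.09 and 5.31, just above the dim range, against 3.42 and 2.67 (difference 2.16 ± 0.3, adjusted p = 0.00157; 0.39 with dim values set to 4.81). Figla, which switches on the zona pellucida genes, had 6.57 and 6.68 against 5.84 and 5.54 and was not called (difference 0.94 ± 0.31, adjusted p = 0.0651).

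Among the genes that define PGC identity, Dppa3, Prdm1 and Kit were not called. Dppa3, the reporter gene of both sorts, had 13.08 and 13.1 in E12.5 PGCs and 13.1 and 12.97 in d6 PGCLCs (difference 0.06 ± 0.14, adjusted p = 0.821). Prdm1, the repressor that starts PGC specification, had 9.93 and 9.79 against 10.71 and 10.72 (difference -0.86 ± 0.27, adjusted p = 0.0555). Kit, the receptor for the survival factor of migrating PGCs, had 11.67 and 11.49 against 11.85 and 11.94 (difference -0.32 ± 0.45, adjusted p = 0.69). Of the 21 tested PGC specification genes, 2 were higher and 8 lower, with 2 and 3 kept and a median difference of -0.4. Among those lower, Ifitm3 (Fragilis), the membrane protein first seen as PGCs arise, had 12.17 and 12.03 against 13.36 and 13.24 (difference -1.2 ± 0.15, adjusted p = 0.00098). Tfap2c, which acts with Prdm1, differed by -0.5 ± 0.14 (adjusted p = 0.0378) and was no longer called whichever array was left out. Fgfr3, a receptor for fibroblast growth factors, was in the opposite direction, with 9.52 and 9.63 against 7.08 and 7.39 (difference 2.33 ± 0.28, adjusted p = 0.000825).

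Pluripotency genes leaned toward d6 PGCLCs, with 0 of 26 tested genes higher and 10 lower, 4 of them kept, and a median difference of -0.46. Tfcp2l1, a transcription factor of naive pluripotency, had 8.46 and 8.63 in E12.5 PGCs and 10.54 and 10.32 in d6 PGCLCs (difference -1.89 ± 0.17, adjusted p = 0.000181). Esrrb, a nuclear receptor of the same network, differed by -1.04 ± 0.15 (adjusted p = 0.00159), and both were kept. Nanog had 9.67 and 9.44 against 11.52 and 10.95, a difference of -1.68 ± 0.47 (adjusted p = 0.0376), but its adjusted p was 0.0751 to 0.197 with an array left out. Pou5f1 (difference -0.49, adjusted p = 0.0542) and Sox2 (difference -0.33, adjusted p = 0.14) were not called and stayed above 12 on all 4 arrays. Primed epiblast genes went the other way, with 7 of 19 tested higher and 0 lower, of which 1 (Sfrp2, also a WNT inhibitor) was kept. Of the 19, 5 had a dim mean in E12.5 PGCs and 5 in d6 PGCLCs, with 3 dim in both. Fgf5, counted as higher, was dim on all 4 arrays (4.28 and 4.69 against 3.25 and 3.56).

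Nodal signalling held the largest drop by the ranking used here, which sets dim values to 4.81. Nodal is a TGF-beta family ligand of the early embryo, Tdgf1 (Cripto) is its co-receptor, and the Lefty proteins are inhibitors that Nodal itself induces. Lefty2 had 4.95 and 5.4 in E12.5 PGCs and 10.13 and 10.67 in d6 PGCLCs, a difference of -5.22 ± 0.29 (adjusted p = 3.16e-05; 37.4-fold). Lefty1 had 7.15 and 6.94 against 10.14 and 10.62 (difference -3.34 ± 0.24, adjusted p = 7.55e-05). Tdgf1 had 6.57 and 6.48 against 11.57 on both d6 arrays (difference -5.04 ± 0.55, adjusted p = 0.000463; 33.0-fold). All 3 were kept. The ligand itself, Nodal, had 6.67 and 5.96 against 8.07 and 7.59 and was not called (difference -1.52 ± 0.65, adjusted p = 0.14). Of the 13 tested genes of the pathway, 3 were lower and 2 higher, the latter being the receptor Acvr2a and the transducer Smad2, neither of which was kept.

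Genes of the response to LIF, the cytokine that acts through the receptor subunits Lifr and Il6st, JAK kinases and STAT3, were lower in 12 of 23 tested cases and higher in 2. Of these, 6 lower and 0 higher genes were kept, and the median difference was -1.08. Socs3, the feedback inhibitor induced by STAT3, had dim values of 3.14 and 3.48 in E12.5 PGCs and 8.99 and 9.35 in d6 PGCLCs (difference -5.86 ± 0.46, adjusted p = 0.000104). With dim values set to 4.81 the difference was -4.35, and its 3 tested probe sets ranged from -5.86 to -4.51. Bcl3, a nuclear cofactor of NF-kappa-B, had 3.99 and 3.66 against 8.59 and 9.02 (difference -4.98 ± 0.33, adjusted p = 6.25e-05). Junb, an AP-1 subunit, had 5.99 and 5.72 against 9.06 and 9.05 (difference -3.2 ± 0.31, adjusted p = 0.000271). The ligand Lif differed by -1.79 ± 0.24 (adjusted p = 0.00128), and Stat3 by -1.14 ± 0.18 (adjusted p = 0.00316), although its 3 tested probe sets ranged from -1.14 to 0.17. Neither receptor subunit was called, with Lifr at -0.42 (adjusted p = 0.156) and Il6st at -0.05 (adjusted p = 0.852). Socs2 (difference -0.24) and Cish (difference -0.19), feedback inhibitors of other cytokine signals, were not called. The kinases Jak1 and Jak2 were the 2 higher genes, by 1.03 and 1.01.

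**Figure D3:**
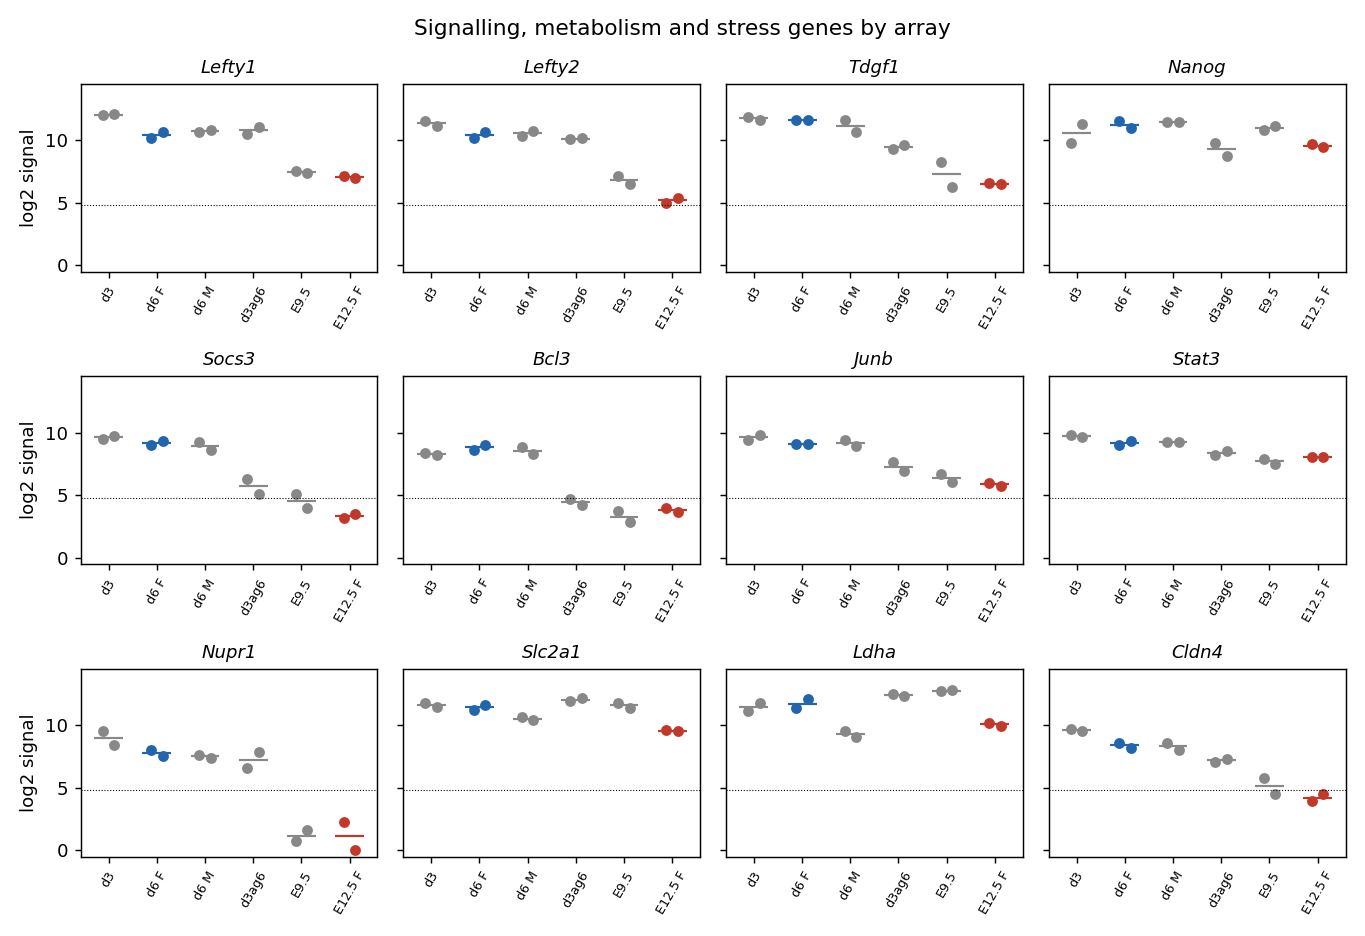
Log2 signal of 12 signalling, metabolism and stress genes on each of the 12 arrays, drawn as points with the mean of 2 arrays as a short line and 4.81 as a dotted line. E12.5 PGCs (red) lie below d6 female PGCLCs (blue) in every panel. For Lefty1 and Lefty2 the d3ag6 arrays stand near the d6 arrays, with means of 10.76 and 10.12.

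Immediate early genes, which respond within minutes to signals or handling of cells, were lower in 8 of 23 tested cases and higher in 0, with 7 kept. Egr1 had 6.65 and 6.75 against 8.79 and 8.68 (difference -2.03 ± 0.24, adjusted p = 0.000657), and Ier3 differed by -2.65 ± 0.29 (adjusted p = 0.000463). Btg2 differed by -1.97 ± 0.25 (adjusted p = 0.00102), whereas its other tested probe set gave -0.06. Fos and Jun, the best known members, gave -0.11 and -0.1 and were not called, and Atf3 gave -0.2 (adjusted p = 0.523). The list was thus split between members that were clearly lower and members with differences near 0.

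The integrated stress response, in which the factor Atf4 induces genes of amino acid supply when protein synthesis is limited, had 11 of 28 tested genes lower and 0 higher, 6 of them kept, with a median difference of -0.6. Nupr1, a stress-induced chromatin protein, had 2.28 and 0.0 in E12.5 PGCs and 7.97 and 7.51 in d6 PGCLCs (difference -6.6 ± 0.73, adjusted p = 0.0005). Because both E12.5 values were dim, and 1 of them was listed at 0, the difference was -2.93 with dim values set to 4.81. Chac1, which degrades glutathione, had 5.95 and 5.46 against 8.45 and 7.91 (difference -2.48 ± 0.38, adjusted p = 0.0026). Of the biosynthetic enzymes, Phgdh, at the entry to serine synthesis, differed by -2.02 ± 0.33 (adjusted p = 0.00333), Shmt2, which passes serine carbon to folate, by -1.66 ± 0.22 (adjusted p = 0.00134), and Cth, of cysteine synthesis, by -2.41 ± 0.4 (adjusted p = 0.00372). Atf4 itself had 10.52 and 10.67 against 11.59 and 11.5 (difference -0.95 ± 0.15, adjusted p = 0.00304). The glutamine carrier Slc1a5, outside this list, had 6.03 and 6.14 against 9.88 and 9.86, a difference of -3.79 ± 0.15 (adjusted p = 9.56e-06). Asns (difference -0.43) and Trib3 (difference 0.73), further Atf4 targets, were not called.

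Genes of hypoxia and glycolysis were lower in 14 of 31 tested cases and higher in 0, with 9 kept and a median difference of -0.68. The d6 arrays differed from each other in the summed log2 level of the list, at 305.9 on replicate 1 and 319.6 on replicate 2. The E12.5 arrays had 286.9 and 286.5. At the point of glucose entry, Slc2a1 had 9.58 and 9.53 against 11.18 and 11.63 (difference -1.85 ± 0.22, adjusted p = 0.000639), and Slc2a3 differed by -1.51 ± 0.16 (adjusted p = 0.000417). The hexokinases Hk2 and Hk1, which trap glucose in the cell, differed by -1.9 ± 0.25 (adjusted p = 0.00124) and -1.94 ± 0.27 (adjusted p = 0.00157). Further down the pathway, Pfkl differed by -1.89 ± 0.32 (adjusted p = 0.00412), Tpi1 by -1.65 ± 0.21 (adjusted p = 0.00107) and Ldha, which turns pyruvate into lactate, by -1.64 ± 0.29 (adjusted p = 0.0049). Vegfa, a hypoxia-induced growth factor of blood vessels, had dim values of 3.94 and 3.72 against 5.85 and 6.25 (difference -2.22 ± 0.3, adjusted p = 0.00136; -1.24 with dim values set to 4.81). Gapdh (difference -0.27, adjusted p = 0.189), Pgk1 (difference -0.34) and Pkm (difference -0.31, adjusted p = 0.284) were not called, so that the calls covered a part of the pathway. In male d6 PGCLCs, on arrays of other codes and not tested here, the means of Slc2a1 (10.5), Slc2a3 (12.56), Hk1 (11.04), Hk2 (9.42) and Tpi1 (10.69) lay above the E12.5 means of 9.56, 11.37, 10.16, 8.16 and 9.99. Those of Ldha (9.32 ± 0.34, SD, n = 2) and Pfkl (7.71 ± 0.69) lay below the E12.5 means of 10.06 and 8.5. Of 44 tested nuclear genes of oxidative phosphorylation, limma called 0, with 4 at an unadjusted p under 0.05, and the median difference was 0.08.

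Targets of BMP signalling divided. Id1, an inhibitor of helix-loop-helix factors and a direct BMP target, had 11.41 and 11.67 against 8.78 and 9.04 (difference 2.63 ± 0.29, adjusted p = 0.000457). Its relative Id4 had 9.52 and 9.4 against 5.69 and 4.96 (difference 4.13 ± 0.27, adjusted p = 5.51e-05; 17.6-fold), although its 3 tested probe sets ranged from 0.28 to 4.13. Msx1, a homeobox target of BMP that promotes meiotic entry in female germ cells, had 9.05 on both E12.5 arrays against 6.85 and 6.73 (difference 2.26 ± 0.19, adjusted p = 0.000131). Id3 (difference 0.18), Id2 (difference 1.79, adjusted p = 0.118) and Msx2 (difference 0.26) were not called. The ligand Bmp4 was lower, by -1.24 ± 0.24 (adjusted p = 0.0084), and was not kept. In all, 3 of 21 tested genes of the pathway were higher and 4 lower, with 3 and 0 kept.

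Genes of the WNT pathway were higher in 8 of 24 tested cases and lower in 1 (Lgr4, a receptor for R-spondins), with 3 and 0 kept and a median difference of 0.48. Sp5, a transcription factor induced by WNT, had 8.32 and 7.87 against dim values of 4.64 and 4.13 (difference 3.71 ± 0.43, adjusted p = 0.000597). The other kept members were inhibitors: Sfrp2, which binds WNT proteins, had 7.92 and 7.98 against 4.46 and 4.7 (difference 3.37 ± 0.23, adjusted p = 6.25e-05), and Notum, which removes their lipid, differed by 1.06 ± 0.14 (adjusted p = 0.00134). Axin2, a common target, had 10.09 and 10.21 against 8.16 and 8.76 (difference 1.69 ± 0.39, adjusted p = 0.0173) and was not kept. In the FGF and ERK list 4 of 20 tested genes were higher and 2 lower. The inhibitors Spred1 and Spry1 were higher by 1.08 and 1.14 and kept, while Spry2, of the same family, was lower by -1.42 ± 0.3 (adjusted p = 0.0108) and not kept.

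Junction and keratin genes of simple epithelia were lower in 7 of 19 tested cases, with 5 kept, and higher in 1 (Krt18), which was not kept. Cldn4, a claudin of tight junctions, had dim values of 3.92 and 4.5 against 8.54 and 8.2 (difference -4.16 ± 0.4, adjusted p = 0.000235). Cldn7 had 9.02 and 9.12 against 11.19 and 11.51 (difference -2.29 ± 0.16, adjusted p = 7.33e-05), and Krt7 differed by -2.33 ± 0.19 (adjusted p = 0.00011). Krt8, the partner of Krt18, gave 0.31 and was not called, and Cdh1 and Epcam, epithelial adhesion proteins that germ cells also make, were not called.

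Imprinted genes moved in both directions, with 5 of 36 tested higher, all kept, and 6 lower, of which 2 were kept. Imprinted genes are expressed from the copy of 1 parent, and germ cells erase these marks around the time they settle in the gonad. Slc22a18 had 8.65 and 8.54 against 6.34 and 6.01 (difference 2.42 ± 0.17, adjusted p = 7.55e-05), and Phlda2, from the same cluster, had 12.58 and 12.59 against 10.81 and 10.66 (difference 1.85 ± 0.33, adjusted p = 0.00535). Ascl2 had 7.33 and 7.18 against dim values of 3.07 and 3.86 (difference 3.79 ± 0.38, adjusted p = 0.000322; 2.44 with dim values set to 4.81). Impact had 8.54 and 8.53 against 10.84 and 10.63 (difference -2.2 ± 0.16, adjusted p = 8.55e-05), and Slc38a4 differed by -1.55 ± 0.15 (adjusted p = 0.000281). Meg3, a maternally expressed noncoding RNA, had 8.24 and 8.97 against 10.52 and 10.82 (difference -2.06 ± 0.44, adjusted p = 0.0113) and was not kept. The arrays do not tell the parental copies apart.

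Interferon-induced and immunoproteasome genes were lower in 9 of 28 tested cases and higher in 0, with 3 kept (Ifitm3, Ifih1 and H2-K1). H2-K1, a class I histocompatibility gene, had 7.68 and 7.62 against 8.79 and 9.82 (difference -1.66 ± 0.3, adjusted p = 0.00554), with its 3 tested probe sets between -1.66 and 0.26. B2m, its light chain, differed by -1.52 ± 0.45 (adjusted p = 0.0428) and was not kept. Class I genes vary between mouse strains, and strain differed between the groups. Of the p53 targets and apoptosis genes 9 of 27 were lower and 1 higher, with 2 lower genes kept. Bbc3 (Puma), which triggers cell death, had 6.67 and 6.6 against 7.67 and 7.68 (difference -1.04 ± 0.19, adjusted p = 0.00509), and Zmat3 differed by -1.5 ± 0.24 (adjusted p = 0.00323).

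**Figure D4:**
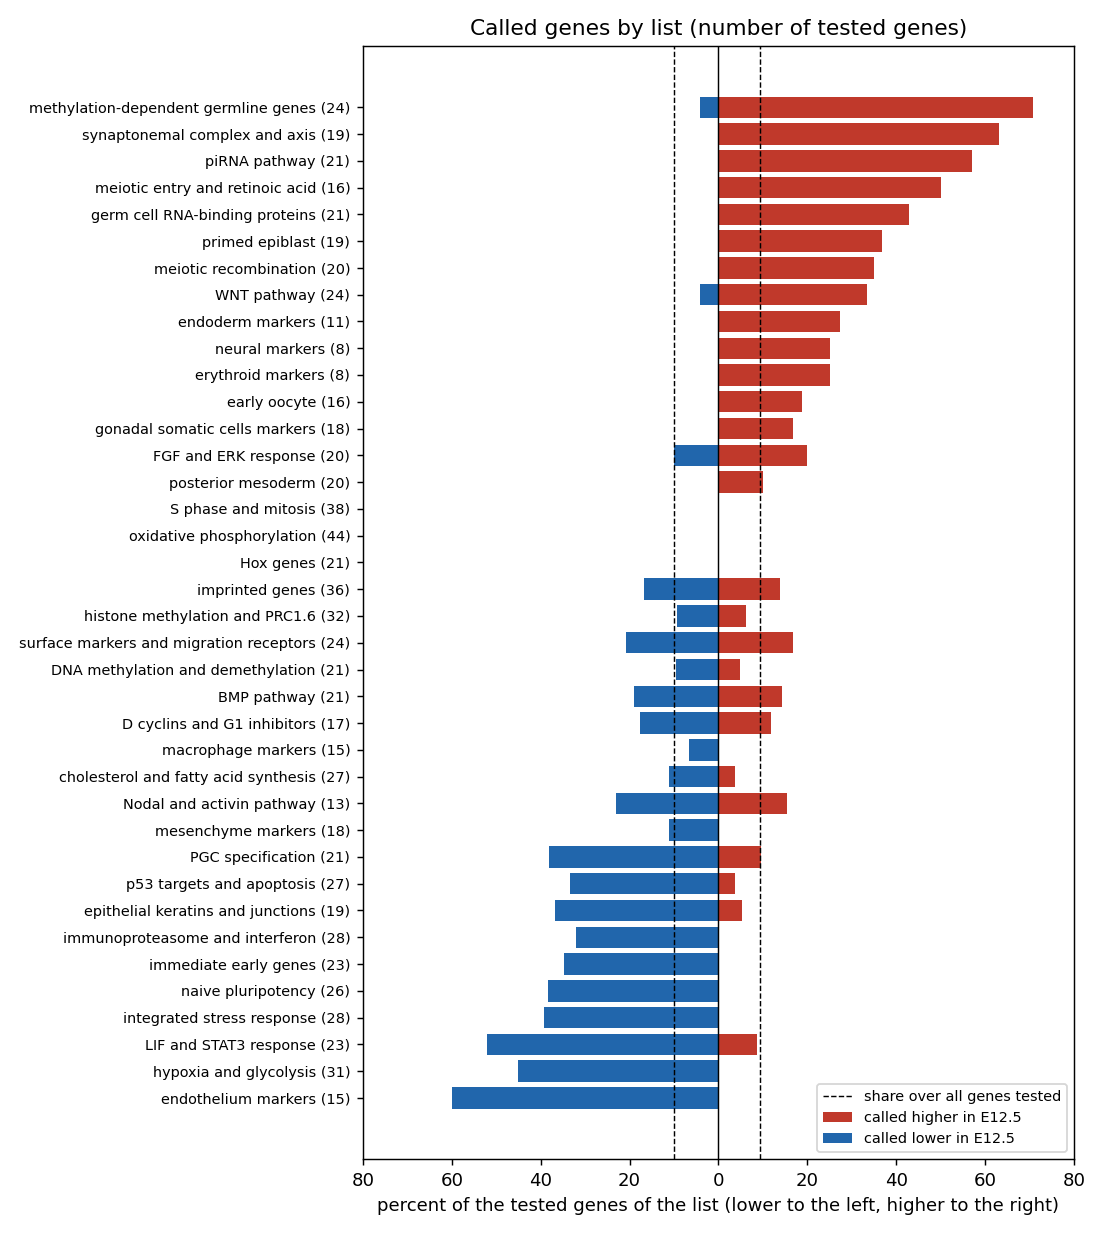
Percent of the tested genes of each list that were called higher (red, to the right) or lower (blue, to the left) in E12.5 PGCs, with the number of tested genes in brackets. Dashed lines mark the shares over all genes tested, 9.33% higher and 10.1% lower. Germline and meiosis lists lie at the top, and endothelium markers, hypoxia and glycolysis, and LIF and STAT3 response at the bottom.

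Other genes among the 15 largest in each direction fell outside these lists. Toward E12.5 PGCs they included Met, the receptor for hepatocyte growth factor, with 8.55 and 8.35 against dim values of 3.95 and 4.79 (difference 4.08 ± 0.33, adjusted p = 0.00011), and Dync1i1, a subunit of the dynein motor, with 8.78 and 8.28 against 4.47 and 3.83 (difference 4.38 ± 0.25, adjusted p = 3.16e-05). Crym, a thyroid hormone-binding protein, differed by 3.74 ± 0.32 (adjusted p = 0.000146). Lonrf2 differed by 5.32 ± 0.41 (adjusted p = 0.000104). Zfp503, a zinc finger protein, differed by 6.04 ± 0.65 (adjusted p = 0.000434), or by 3.62 with dim values set to 4.81, and its 2 tested probe sets gave 0.13 and 6.04.

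Toward d6 PGCLCs, Fabp3, a fatty acid-binding protein, had 6.49 and 6.58 against 11.4 and 11.2 (difference -4.77 ± 0.34, adjusted p = 7.33e-05), while its other tested probe set gave 0.28. Lcp1 (L-plastin), which bundles actin, had 5.89 and 6.18 against 10.14 and 10.27 (difference -4.18 ± 0.32, adjusted p = 0.000101). The myosin light chain Myl9 differed by -4.05 ± 0.36 (adjusted p = 0.000164), the adhesion protein Trip6 by -3.83 ± 0.26 (adjusted p = 6.46e-05) and the matrix protein Tinagl1 by -3.86 ± 0.27 (adjusted p = 7.33e-05). Tmem63a, an osmotically gated channel, differed by -4.37 ± 0.3 (adjusted p = 6.25e-05), and the adaptor Grb7 by -3.87 ± 0.31 (adjusted p = 0.00011). Prkch, a protein kinase C, differed by -3.64 ± 0.32 (adjusted p = 0.000151), and H2-Bl, another class I gene, by -3.99 ± 0.37 (adjusted p = 0.000207). H2-Bl had 4.21 and 4.58 in E12.5 PGCs and 8.86 and 7.91 in female d6 PGCLCs. In male d6 PGCLCs, on arrays of other codes and not tested here, it had only 5.54 and 4.94. Hspbap1, which binds a heat shock protein, had 3.05 and 2.21 in E12.5 PGCs and 8.53 and 9.24 in d6 PGCLCs. Its means in the other 4 groups lay between 7.72 and 9.58, so that E12.5 was the group that stood apart. Its 2 tested probe sets gave -6.26 and -1.88. E12.5 also stood apart for Trip6 (5.43 against 8.12 to 9.99 in the other 4 groups) and Grb7 (4.61 against 7.45 to 9.16). The same held for Slc1a5 (6.08 against 8.96 to 10.01). By contrast, the E9.5 means of Fabp3 (5.0) and Tmem63a (4.02) lay below their E12.5 means of 6.53 and 4.46.

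The d3ag6 group places the same genes beside cells that had been with gonadal soma. Its contrasts share arrays with the E12.5 minus d6 contrast, so only their own values are given, and 1213 of 13436 genes (9.03%) were called between d3ag6 and E12.5 PGCs. Stra8 averaged 10.45 ± 0.3 (SD, n = 2) in d3ag6, and the difference from E12.5 was 0.41 (adjusted p = 0.58). Dazl averaged 12.56 (difference from E12.5 -0.43, adjusted p = 0.746) and Sohlh2 11.38 (adjusted p = 0.4). Zglp1 stayed lower in d3ag6 than in E12.5 PGCs, at 7.04 (adjusted p = 0.000407), as did Sycp1 at 6.49 (adjusted p = 0.00979), Asz1 at 8.7 (adjusted p = 0.00746) and Mael at 10.47 (adjusted p = 0.0237). Id1, at 7.02, and Msx1, at 6.71, were also lower in d3ag6 than in E12.5 PGCs (adjusted p = 9.54e-05 and 0.000327).

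Among genes that were higher in d6 PGCLCs, Lefty2 averaged 10.12 in d3ag6 and Lefty1 10.76, both above E12.5 PGCs (adjusted p = 9.54e-05 and 9.92e-05). Socs3 averaged 5.7 and was still above E12.5 (adjusted p = 0.0133), whereas Bcl3, at 4.46, was not called (adjusted p = 0.309). Of 31 tested hypoxia and glycolysis genes 15 were higher and 0 lower in d3ag6 than in E12.5 PGCs, where 5.95% of all genes were higher. The median difference of that list was 1.12 for d3ag6 minus E12.5. Nupr1 averaged 7.21 in d3ag6 (adjusted p = 0.00158 against E12.5). Markers of some other cell types, but not of all, were also higher in d3ag6. Of 15 tested macrophage markers 6 were higher and 0 lower than in E12.5 PGCs, with summed log2 levels of 104.3 and 109.8 in d3ag6 against 74.9 and 73.2, and Lyz1, a lysozyme of macrophages, averaged 9.41 against 2.12 (adjusted p = 0.00254). Of 18 gonadal somatic markers 2 were higher and 0 lower, with summed levels of 109.2 and 111.1 against 102.8 and 99.8, and of 18 mesenchymal markers 3 were higher and 0 lower, with 111.2 and 123.8 against 104.5 and 103.4. Endothelial markers were higher in 2 of 15 cases and lower in 0. Erythroid markers went the other way, with 0 of 8 higher and 2 lower. Neural (8 tested) and endoderm markers (11 tested) each had 0 higher and 1 lower. Over all genes 5.95% were higher and 3.07% lower. The part of other cell types in the d3ag6 differences was not tested.

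Markers of other cell types were checked because sorted fractions can hold other cells, and in bulk RNA fewer cells of a type and less RNA per cell cannot be told apart. Of 11 germ cell identity markers, 2 were higher and 2 lower, and none was dim in either group. Endothelium markers were lower in 9 of 15 tested cases and higher in 0, with 2 kept (Emcn and Robo4). The number lower was 2 without d6 replicate 1, 7 without d6 replicate 2, 2 without E12.5 replicate 1 and 3 without E12.5 replicate 2. Their summed log2 level was 85.3 and 87.3 in E12.5 PGCs and 111.2 and 100.5 in d6 PGCLCs. Cdh5, the endothelial cadherin, had 8.02 on d6 replicate 1 and 5.67 on d6 replicate 2, against 4.47 and 4.28, and Pecam1, which germ cells also carry, had 9.32 and 7.43 against 6.68 on both E12.5 arrays and was not called. The part of endothelial cells in any other difference was not tested. None of the endothelium markers stood at 0.

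Gonadal somatic cell markers were higher in 3 of 18 tested cases (Rspo1, Amhr2 and Fst), with 0 kept, and lower in 0. Fst was dim on all 4 arrays, with 4.56 and 4.3 against 2.26 and 3.28. Of the 18 markers, 8 had a dim mean in d6 PGCLCs and 4 in both groups. The summed log2 level of the markers was 102.8 and 99.8 in E12.5 PGCs and 91.6 and 90.3 in d6 PGCLCs. Rspo1, a WNT activator of the ovary, had 5.72 and 6.19 against dim values of 2.63 and 2.52 (difference 3.38 ± 0.73, adjusted p = 0.0124; 1.14 with dim values set to 4.81). Wt1, which defines the gonadal soma, was dim on all 4 arrays, with 4.52 and 4.46 against 3.84 and 3.8, and Foxl2, of granulosa cells, differed by -0.3 (adjusted p = 0.387). Rspo1 stood in the WNT list as well, and the part of somatic cells in that count was not tested.

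Among erythroid markers 2 of 8 were higher (Hbb-y and Hba-x), with 0 kept and summed levels of 42.9 and 41.0 against 35.9 and 36.9. Hbb-y, an embryonic globin, had 6.98 and 5.97 against dim values of 2.39 and 2.48. Of the macrophage markers 1 of 15 was lower (Cd68) and 0 higher, with summed levels of 74.9 and 73.2 against 75.2 and 74.5. Mesenchyme markers were lower in 2 of 18 cases (Acta2, kept, and Col3a1), with summed levels of 104.5 and 103.4 against 111.1 and 112.5. Neural markers were higher in 2 of 8 cases (Pax6, kept, and Map2), with summed levels of 42.1 and 42.7 against 38.9 and 39.0. Endoderm markers were higher in 3 of 11 cases (Foxa1, Cubn and Foxa2, none kept), with summed levels of 68.2 and 68.0 against 64.6 and 64.5.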

How the data were processed

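Each of the 12 Affymetrix arrays has 1 deposited log2 value for each of 45101 probe sets. The log2 scale of the deposited values was inferred from array maxima of 13.76 to 13.93. For the log base, probe summarisation and earlier normalization, nothing is given in the sources used here. Per the labels' protocols, PCR with 12 initial cycles amplified cDNA from 5 ng of RNA, about 500 sorted cells. So small an input can widen the spread of dim genes, and on each array 2.07% to 2.3% of the values stood at 0. Only 2 arrays per group limit the precision.

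Array medians lay between 4.73 and 4.87, so the arrays were quantile normalized. In the platform annotation 34958 probe sets had 1 gene, and the 932 with several and 9211 without any were not used; gene IDs tied 34754 to the RefSeq gene table. The brightest probe set on average stood for each of 18194 genes, and the 13436 genes exceeding 4.81 on at least 2 arrays were tested. Testing used limma 3.58.1 in R 4.3.3 (lmFit, eBayes, two-sided), with a mean for each group fitted to all 12 arrays, 6 residual degrees of freedom and Benjamini-Hochberg adjustment. In the E9.5 and male d6 groups, replicate 1 was coded EA0831 and replicate 2 EA0842, so any difference between codes enters the pooled spread. The SE of a gene can thus be wide through groups outside the comparison. In a simulation of this comparison that changed 200 of 13436 genes, the fit found 31% of the 2-fold and 96% of the 4-fold changes. Of its calls, 3.55% were false. The simulation changed a far smaller share of genes than the 19.4% called in the data. It also gave each gene the same normal noise in all groups, so its rates need not hold here. Python 3.11.15, pandas 2.3.3, numpy 2.4.6 and matplotlib 3.10.9 made tables and figures.

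The comparison, the gene lists and the members named were chosen with earlier results of these data known. Naming took, in each direction, the 15 largest changes after dim values were set to 4.81, among calls that survived every left-out array, with groups that did not overlap and symbols that were not provisional. It added up to 4 genes per list by adjusted p, further genes where a pathway is described by roles, and in any case Nanog, Kit, Dppa3, Prdm1, Stra8, Sycp3, Dazl, Ddx4 and Xist. List members without a probe set or below the filter were not tested. Other settings were the values as deposited, centring on the median, other filters, averaged probe sets, dim values set to the median, fewer arrays, eBayes with trend and robust, a replicate block, a 2-fold minimum, all probe sets, and each array left out.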

Additional observations from a re-analysis of the deposited data

How the results depend on the processing

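The number of genes called (2611) was 1135 to 1475 with 1 of the 4 arrays left out, where the remaining array of that group is assumed to vary like the other groups, and 1575 with a 2-fold minimum. It was 2855 with a replicate block, 2002 with no filter, 1916 with the probe sets of a gene averaged and 3295 with only the 8 arrays coded EA1013. The replicate numbers share no stated origin, and deviations of same-numbered arrays of the 2 groups correlated at 0.2, so the block is given as a count of calls only. Higher genes made up 43.3% to 50.8% of the calls in every setting run on genes. Of 286 genes considered for naming, 198 were called, and 121 of these were still called whichever array was left out; 149 kept it in every other setting that tested them. The direction turned for 1, Ccnd3, which was -0.88 and became 0.58 with probe sets averaged. Dim genes carry the least certain sizes: 388 called genes had a group mean below 4.81.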

Other observations

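RNA of genes in the list of surface markers and migration receptors differed in both directions, with 4 of 24 tested genes higher and 5 lower in E12.5 PGCs, and 3 and 1 kept. Fut4, a fucosyltransferase, had 7.2 and 7.31 in E12.5 PGCs and dim values of 3.22 and 3.13 in d6 PGCLCs. The difference was 4.08 ± 0.23 (adjusted p = 3.16e-05), or 2.44 with dim values set to 4.81. Itgb3, the integrin subunit CD61, had 10.27 and 10.3 against 9.21 and 9.12 (difference 1.12 ± 0.17, adjusted p = 0.00241), and Prom1 (CD133) had 8.83 and 8.84 against 5.84 and 6.85 (difference 2.49 ± 0.33, adjusted p = 0.0012). Ednrb, the endothelin receptor, had dim values of 2.65 and 2.86 against 5.54 and 5.52 (difference -2.78 ± 0.22, adjusted p = 0.00011; -0.72 with dim values set to 4.81), while its other tested probe set gave 0.72. Cxcr4, the receptor that guides PGC migration, gave -0.79 (adjusted p = 0.118).

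Cell cycle genes of S phase and mitosis showed no call in limma (0 of 38 tested, 6 at an unadjusted p under 0.05), with a median difference of 0.0. Ccnd1, a D cyclin, had 8.46 and 8.37 against 6.9 and 6.53 (difference 1.7 ± 0.38, adjusted p = 0.0144) and lost its call with 3 of the 4 arrays left out in turn. The retinoblastoma gene Rb1 differed by 1.05 ± 0.15 (adjusted p = 0.00159) and was kept. Of the DNA methylation genes 1 of 21 was higher, the helicase Hells (12.4 and 12.5 against 10.51 and 10.93), and 2 were lower (Gadd45a and Mbd3). Gadd45a was kept, and Hells and Mbd3 were not. The share called was 14.3%, against 19.4% over all genes tested. Dnmt1 gave 0.0 (adjusted p = 0.991) and Tet1 -1.32 (adjusted p = 0.176). Limma called 0 of 21 tested Hox genes, with 2 at an unadjusted p under 0.05.

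On the X chromosome 76 of 444 tested genes were higher and 44 lower in E12.5 PGCs, with 30 and 17 kept, and the median difference was 0.11. On autosomes 1173 of 12927 were higher and 1310 lower, with a median of -0.01. Xist, the RNA that silences the inactive X chromosome, had 5.93 and 5.67 in E12.5 PGCs and 5.58 and 5.59 in d6 PGCLCs and was not called (difference 0.22, adjusted p = 0.655). Its 2 tested probe sets gave 0.22 and -0.22. Male d6 PGCLCs, on arrays of other codes and not tested here, had 5.34 and 4.81, so these values give little information on Xist.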
